A study of Homo sapiens with 6 samples.

Results

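The genes examined here encode 10 proteins that are used to recognise small extracellular vesicles or that help to make them. They are CD9, CD63, CD81, TSG101, PDCD6IP, SDCBP, FLOT1, FLOT2, HSPA8 and SMPD3, taken by symbol from a table of 38167 genes, and all 10 were found and passed the filter on low counts. The data are RNA counts from vesicles that Cal27 spheroids shed into their medium. Cal27 is a cell line derived from a squamous carcinoma of the tongue. In the stiff group the spheroids were grown in Matrigel, an extract of basement membrane that sets to a gel, at 12 mg/mL, and in the soft group at 3 mg/mL. Both groups were at day 14, carried no other treatment in the labels, and had 3 libraries each, which the labels call biological replicates. The cells are from a single line, and whether a library pooled several spheroids or wells is not given in the sources used here. Vesicles were isolated by insulator-based dielectrophoresis, in which an uneven electric field holds the particles back. The series asked how matrix stiffness alters the vesicles that the spheroids release.

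Small vesicles of the exosome kind form when the membrane of a late endosome buds inward, and they leave the cell when that endosome fuses with the plasma membrane. Budding can be driven by the ESCRT complexes, by the syndecan, syntenin and ALIX route, or by ceramide made from sphingomyelin. Tetraspanins and flotillins sit in the vesicle membrane, and the chaperone HSC70 is carried inside. These are markers as proteins. The counts below are of RNA of the same genes, and they do not measure the proteins or the number of vesicles. A change in the number of vesicles and a change in RNA per vesicle cannot be told apart in such libraries.

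Libraries held 2697502 to 2977837 counts in the stiff group and 2445498 to 2545385 in the soft group. Ribosomal RNA genes took 20.02% to 22.9% of counts in stiff libraries, against 2.97% to 8.87% in soft ones. The 13 mitochondrially encoded messengers summed to 1798 to 2193 CPM in stiff and 14195 to 16603 CPM in soft libraries on the scale described next. The part of either in the results below was not tested. Levels were scaled by TMM, which sets the middle of the gene distribution equal between libraries, and are given as CPM, the count scaled to a common library size. Marker genes of the labelled cell type, squamous epithelium, summed to 267 to 294 CPM in stiff and 247 to 251 CPM in soft libraries over 10 genes. The 7 fibroblast markers summed to 280.0 to 292 CPM in stiff and 261 to 285 CPM in soft libraries, and the 5 endothelial ones to 221 to 243 CPM in stiff and 208 to 242 CPM in soft. Per kb of exon the median was 7.69 CPM for the squamous markers, 4.54 for the fibroblast markers, 5.94 for the endothelial markers, 3.26 for 5 leukocyte markers, 13.4 for 5 erythroid and platelet markers and 2.18 for 3 liver and serum markers. No marker of any of these lists was at 0 in all libraries, and PPBP, a platelet chemokine gene, was at 0 in soft replicate 1 only. Of the squamous markers 1 of 10 passed the edgeR test between the groups described below, beside 0.451% of all genes tested, and 4 of 10 had an unadjusted p under 0.05, beside 9.51% of all genes. The gene that passed was KRT14, a keratin of basal epithelium with close paralogues, at 33.4 ± 6.17 CPM in stiff and 20.6 ± 3.80 CPM in soft libraries (SD, n = 3 each; log2 fold change 0.69 ± 0.17, edgeR adjusted p = 0.0281), named after its values were seen. Of the 25 genes of the other lists 22 passed the filter, of which 0 were called by edgeR and 2, CLDN5 and HBA2, had an unadjusted p under 0.05. Of the squamous markers TP63, EPCAM and SFN had a log2 fold change below 0, at -0.12, -0.091 and -0.22, and the others were above 0. The summed squamous markers in CPM did not overlap between the groups, at a stiff-to-soft ratio of 1.14. As a share of all counts they did overlap, at 0.0235% to 0.0270% in stiff and 0.0258% to 0.0280% in soft libraries, and the ratio was 0.950. Their part in the results below was not tested.

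None of the 10 vesicle marker genes passed the test between stiff and soft. The test was edgeR's quasi-likelihood F test across all 31074 genes that passed the filter, two-sided, with Benjamini-Hochberg adjustment and a call at an adjusted p under 0.05. It called 0 of 10 markers, against 0.451% of all genes tested. At an unadjusted p under 0.05 there was 1 of 10, HSPA8, against 9.51% of all genes. DESeq2 without its own filter on mean count and limma-voom also called 0 of the 10. With that filter DESeq2 gave an adjusted p to SMPD3 alone of the 10 (0.910), so the other markers could not be called there. The summed level was 251, 300 and 273 CPM in the stiff libraries and 266, 260 and 263 CPM in the soft ones. The means were 275 ± 24.6 CPM in stiff and 263 ± 3.30 CPM in soft libraries (SD, n = 3 each), and the ranges overlapped. As a share of all counts the markers together took 0.0226% to 0.0276% in stiff and 0.0274% to 0.0297% in soft libraries, where the higher ribosomal RNA content of the stiff libraries enters the total. The median log2 fold change of the 10 genes was 0.05, beside -0.00484 for all genes tested, and 8 of 10 were above 0, beside 49.1% of all genes. Scaled by library totals alone, CD9 was the 1 marker above 0, and the median of the markers was -0.22, where that of all genes was -0.27.

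**Figure D1:**
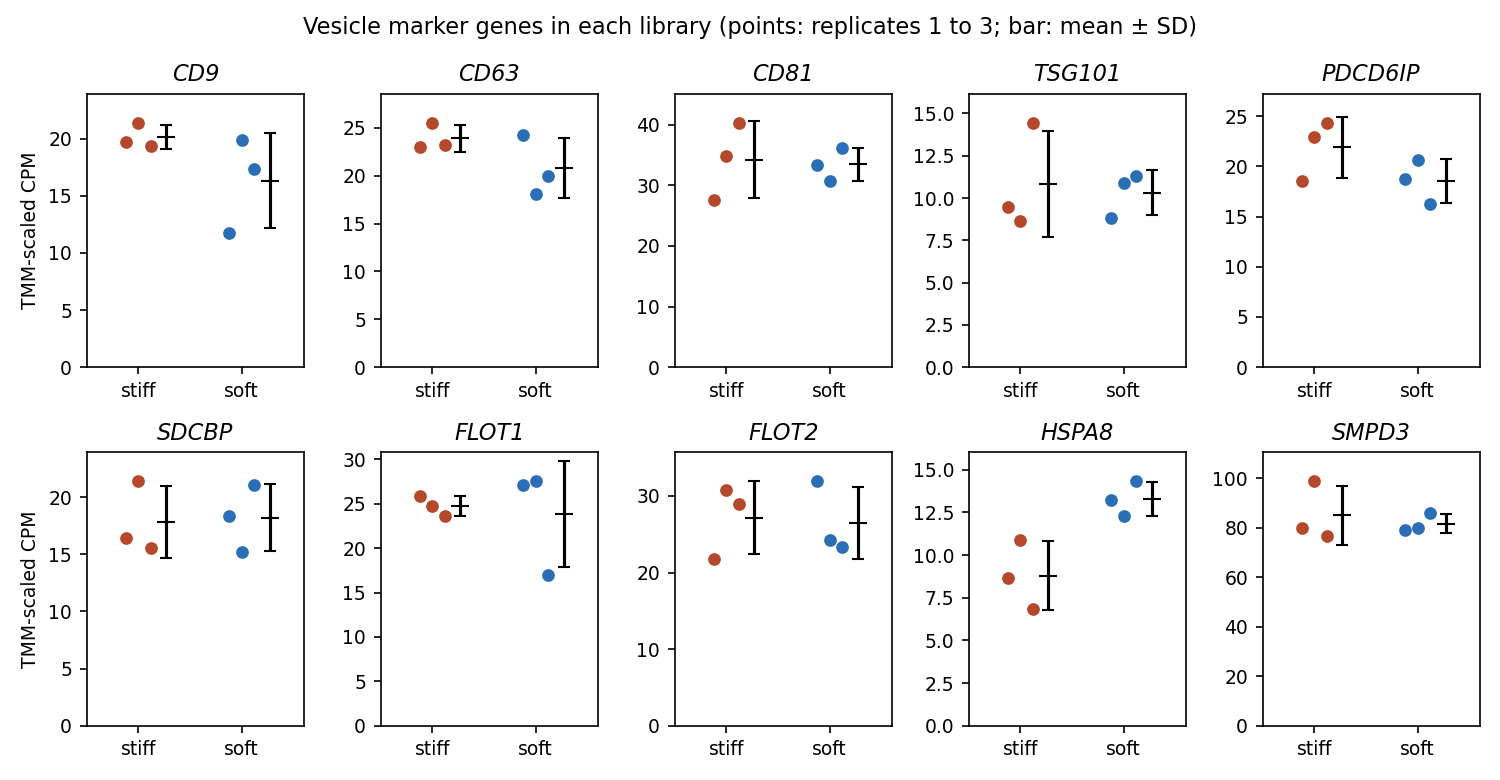
TMM-scaled CPM of each vesicle marker gene in the 3 stiff and 3 soft libraries (points), with the mean and SD of each group (bars). In the HSPA8 panel the stiff points lie between 6.84 and 10.9 CPM and the soft points between 12.3 and 14.3 CPM, and in the other 9 panels the groups overlap.

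The tetraspanins CD9, CD63 and CD81 are small proteins that cross the membrane repeatedly and organise partner proteins into membrane domains. CD63 is concentrated on late endosomes and lysosomes, and CD9 and CD81 more at the cell surface. CD9 (chromosome 12, 6199715 to 6238271, plus strand, GRCh38) had 48, 57 and 51 counts in stiff libraries and 32, 55 and 46 in soft ones, in replicate order. Soft replicate 1 stood low, and the other soft libraries reached into or near the stiff range. Its level was 20.2 ± 1.07 CPM in stiff and 16.3 ± 4.18 CPM in soft (SD, n = 3 each), a log2 fold change of 0.30 ± 0.21 (SE; edgeR adjusted p = 0.691). The 95% interval ran from a stiff-to-soft ratio of 0.926 to 1.65.

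CD63 (chromosome 12, 55725323 to 55729707, minus strand) had 56, 68 and 61 counts in stiff libraries and 66, 50 and 53 in soft ones. Soft replicate 1 lay inside the stiff range, and the other soft libraries lay below it. The level was 23.9 ± 1.40 CPM in stiff and 20.8 ± 3.12 CPM in soft (SD, n = 3 each), with a log2 fold change of 0.20 ± 0.19 (SE; edgeR adjusted p = 0.792) and an interval of the ratio from 0.890 to 1.49. CD81 (chromosome 11, 2376177 to 2397419, plus strand) had 67, 93 and 106 counts in stiff libraries and 91, 85 and 96 in soft ones, so the soft values lay inside the stiff range. Its log2 fold change came to 0.04 ± 0.15 (SE, edgeR adjusted p = 0.967), with an interval of the ratio from 0.835 to 1.27. Summed, the 3 tetraspanins had 78.3 ± 6.98 CPM in stiff and 70.6 ± 2.58 CPM in soft libraries (SD, n = 3 each), and the groups overlapped.

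TSG101, PDCD6IP and SDCBP serve the budding machinery. TSG101 is a subunit of ESCRT-I that binds ubiquitinated cargo. PDCD6IP encodes ALIX, which links syntenin to ESCRT-III, and SDCBP encodes syntenin, an adaptor for the tails of syndecans. TSG101 (chromosome 11, 18468336 to 18527232, minus strand) had the fewest counts of the 10 genes on average, 23, 23 and 38 in stiff libraries and 24, 30 and 30 in soft ones. On the count scale stiff replicate 3 was the highest of all libraries and the other stiff libraries the lowest. The log2 fold change came to 0.07 ± 0.27 (SE, edgeR adjusted p = 0.966), and the interval of the ratio, 0.725 to 1.53, was among the widest of the 10. In GENCODE 29 the exons of TSG101 share 7.81% of their length with other genes, among them LDHAL6A on the other strand, and those of CD63 share 9.00%.

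PDCD6IP (chromosome 3, 33798352 to 33869707, plus strand) had 45, 61 and 64 counts in stiff libraries and 51, 57 and 43 in soft ones. Stiff replicates 2 and 3 were above every soft library, and stiff replicate 1 was below soft replicates 1 and 2. The level was 21.9 ± 3.04 CPM in stiff and 18.5 ± 2.22 CPM in soft (SD, n = 3 each), a log2 fold change of 0.24 ± 0.20 (SE; edgeR adjusted p = 0.751). SDCBP (chromosome 8, 58552924 to 58582860, plus strand) had 40, 57 and 41 counts in stiff libraries and 50, 42 and 56 in soft ones, with the soft values within the stiff range on the count scale. Its log2 fold change came to -0.03 ± 0.21 (SE, edgeR adjusted p = 0.985), with an interval of the ratio from 0.735 to 1.31. PDCD6IP has 2 copies by symbol in RefSeq, of which PDCD6IPP2 is in the table, with 24, 32 and 36 counts in stiff and 35, 33 and 33 in soft libraries. How reads that fit both were assigned is not given in the sources used here, so PDCD6IP is uncertain to that extent.

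The flotillins FLOT1 and FLOT2 form joint scaffolds on cholesterol-rich membrane and are found on many vesicles. FLOT1 (chromosome 6, 30727709 to 30742733, minus strand) had 63, 66 and 62 counts in stiff libraries and 74, 76 and 45 in soft ones. The stiff libraries were close together, while soft replicate 3 was the lowest of the 6 and the other soft libraries the highest. The log2 fold change came to 0.05 ± 0.18 (SE, edgeR adjusted p = 0.967). FLOT2 (chromosome 17, 28879335 to 28897679, minus strand) had 53, 82 and 76 counts in stiff libraries and 87, 67 and 62 in soft ones. Its log2 fold change came to 0.04 ± 0.17 (SE, edgeR adjusted p = 0.974), and the interval of the ratio, 0.812 to 1.30, resembled that of FLOT1, 0.806 to 1.33.

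SMPD3 encodes neutral sphingomyelinase 2, which makes ceramide from sphingomyelin at the inner face of membranes. It lies on chromosome 16 (68358325 to 68448688, minus strand) and had the most counts of the 10, 194, 263 and 201 in stiff libraries and 215, 221 and 228 in soft ones. Stiff replicate 2 was the highest, and on the count scale the soft libraries lay between it and the other stiff libraries. The level was 85.0 ± 12.0 CPM in stiff and 81.6 ± 3.80 CPM in soft (SD, n = 3 each), with a log2 fold change of 0.06 ± 0.10 (SE; edgeR adjusted p = 0.912). With the most counts it had the narrowest interval, a ratio from 0.908 to 1.20. In GENCODE 29 its exons overlap those of PRMT7 on the other strand, and 13.9% of its exon length is shared with other genes. PRMT7 had 182, 194 and 178 counts in stiff libraries and 185, 195 and 190 in soft ones.

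HSPA8 was the marker with the lowest stiff-to-soft ratio, and the only one of the 10 whose groups did not overlap. It encodes HSC70, the constitutive cytosolic chaperone of the heat shock 70 family, which also uncoats clathrin vesicles. The gene (chromosome 11, 123057489 to 123063230, minus strand) had 21, 29 and 18 counts in stiff libraries and 36, 34 and 38 in soft ones. Every stiff library lay below every soft one, as raw counts and after scaling. The level was 8.79 ± 2.02 CPM in stiff and 13.3 ± 1.01 CPM in soft (SD, n = 3 each), a log2 fold change of -0.59 ± 0.27 (SE; edgeR unadjusted p = 0.0288, adjusted p = 0.442). The interval ran from a ratio of 0.460 to 0.958. Across all genes tested the groups did not overlap in 14.1%, and in 6.76% with stiff lower, so 1 of 10 is near the background.

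The call of HSPA8 and its unadjusted p changed with the settings. With library totals alone, which count the ribosomal RNA of the stiff libraries, its log2 fold change was -0.86 and its adjusted p 0.0235, where 13.4% of all genes were called lower and the median of all genes was -0.27. After a correction for GC content, which covered 70.0% of the genes tested, it was -0.50 (adjusted p = 0.535). The median of the genes covered was 0.066. Relative to the median of the genes tested in each fit, the log2 fold change was -0.59 with TMM, -0.58 with library totals and -0.57 with the GC correction. A change of library scaling shifts all genes by nearly the same amount, so the values with TMM and library totals had to be alike. Their likeness is not a check of HSPA8. The unadjusted value was above 0.05 with DESeq2, at 0.0634 (adjusted p = 0.999 without its filter), and with the GC correction in edgeR, at 0.0608. It was also above 0.05 in edgeR without stiff replicate 1, at 0.0545 (adjusted p = 0.557), without stiff replicate 3, at 0.141 (adjusted p = 0.728), and without soft replicate 3, at 0.0795 (adjusted p = 0.575). RefSeq lists 20 copies of HSPA8 by symbol, and none is a row of the table. Of the small nucleolar RNA genes inside HSPA8, SNORD14C and SNORD14D share exon positions with it in GENCODE 29, and each had 0 to 2 counts in every library.

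**Figure D2:**
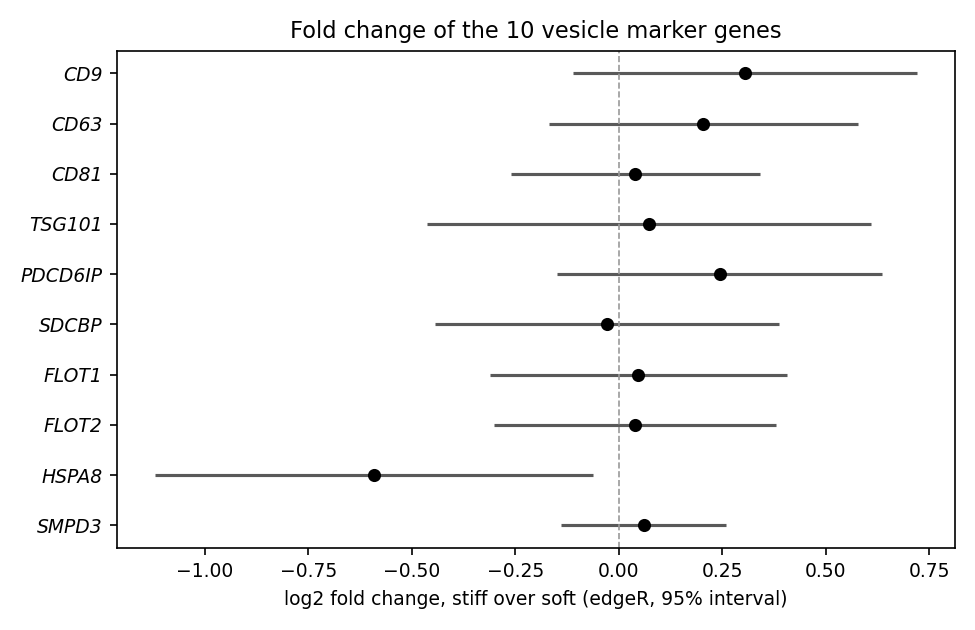
Log2 fold change of each vesicle marker gene, stiff over soft (points), with its 95% interval (lines) from the edgeR fit across all genes. The intervals of 9 genes include 0, and that of HSPA8 runs from -1.12 to -0.06.

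The median spread of the markers between replicates was somewhat above that of counting error. The coefficient of variation of CPM within a group ranged from 4.66% to 29.02% over the 20 pairs of gene and group, with a median of 14.6%, while Poisson counting at these means gives a median of 13.3%. It was above its own counting value in 12 of the 20 pairs, and some pairs lay well above it and others well below it. SMPD3 in stiff libraries was at 14.1%, where counting gives 6.75%, FLOT1 in soft libraries at 25.1%, where counting gives 12.4%, and CD9 in soft libraries at 25.6%, where counting gives 15.02%. Among those below, CD9 in stiff libraries was at 5.31%, where counting gives 13.9%, and FLOT1 in stiff libraries at 4.70%, where counting gives 12.5%. HSPA8 in soft libraries was at 7.59%, where counting gives 16.7%. An SD of 3 libraries is itself uncertain, and it falls below the true spread more often than above it. Across genes, libraries of the same group differed beyond sampling noise (chi-square per degree of freedom 1.53 to 3.86). Reads copied by PCR without molecular identifiers are not independent molecules, so counting error is a lower limit of the expected spread here. The genes had 18 to 263 counts per library, and ratios within the intervals above remain compatible with these libraries. A gene that was not called is thus not shown to be unchanged.

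Levels can be compared between genes only per length. Per kb of exon, over all 6 libraries, SMPD3 was highest at 11.6 ± 1.14 CPM per kb (SD, n = 6). CD63 followed at 8.48 ± 1.05, FLOT2 at 8.04 ± 1.27 and FLOT1 at 7.63 ± 1.22 CPM per kb. CD81 had 4.58 ± 0.598, CD9 4.38 ± 0.828 and SDCBP 3.77 ± 0.572 CPM per kb. TSG101 had 2.76 ± 0.568, HSPA8 2.28 ± 0.587 and PDCD6IP 2.24 ± 0.334 CPM per kb. SMPD3 was apart from CD63 in every library, and each of the other neighbours in this order had overlapping ranges. The order depended on the length used. With the longest transcript of a gene in place of all its exons, CD63 was highest at 18.1 CPM per kb and SMPD3 had 15.3.

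Taken by group, SMPD3 had 11.9 ± 1.68 CPM per kb in stiff libraries and 11.4 ± 0.531 in soft ones (SD, n = 3 each). CD63 had 9.08 ± 0.530 CPM per kb in stiff and 7.89 ± 1.19 in soft, and PDCD6IP had 2.42 ± 0.336 in stiff and 2.05 ± 0.246 in soft. HSPA8 had 1.81 ± 0.418 CPM per kb in stiff libraries, below PDCD6IP, and 2.74 ± 0.208 in soft libraries, above it. The order of the other genes moved between neighbours whose ranges overlap.

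These levels were set against those of genes that squamous epithelium does not use. Olfactory receptors are made in sensory neurons of the nose, and 380 of their protein-coding genes had a length in GENCODE 29. They had a median of 4.28 CPM per kb, with 5th and 95th percentiles of 1.91 and 10.4. The median of 18889 protein-coding genes was 6.08 CPM per kb. Of the 10 vesicle markers 6 were above the olfactory receptor median and 1, SMPD3, was above the 95th percentile of the olfactory receptors. Against all protein-coding genes 4 of 10 were above the median, and all 10 lay between the 5th and 95th percentiles. The olfactory receptor genes had a median GC content of 43.7%, beside 49.7% for all protein-coding genes and 61.4% for SMPD3. By the same measure ACTB was at 13.8, KRT14 at 11.8, GAPDH at 10.5 and EEF1A1 at 3.74 CPM per kb, the last below the receptor median. A rank among these receptors does not by itself tell which markers are expressed.

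The percentile among olfactory receptor genes was 96.6 for SMPD3, 90 for CD63, 88.9 for FLOT2 and 86.8 for FLOT1. It was 57.9 for CD81, 53.7 for CD9 and 36.8 for SDCBP, and 13.7 for TSG101, 8.16 for HSPA8 and 7.11 for PDCD6IP. HSPA8, whose messenger is abundant in most growing cells, was thus below most olfactory receptor genes on this measure, and this depended on the length used. With the longest transcript of a gene in place of all its exons, 9 of 10 markers were above the olfactory receptor median and 3, CD63, SMPD3 and FLOT1, were above their 95th percentile. HSPA8 was then at percentile 53.9 among the receptors and PDCD6IP at 22.9. Among all protein-coding genes on that length 5 of 10 markers were above the median. There HSPA8 was at percentile 17.7 and PDCD6IP at 7.62, beside 5.86 and 5.61 with all exons.

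**Figure D3:**
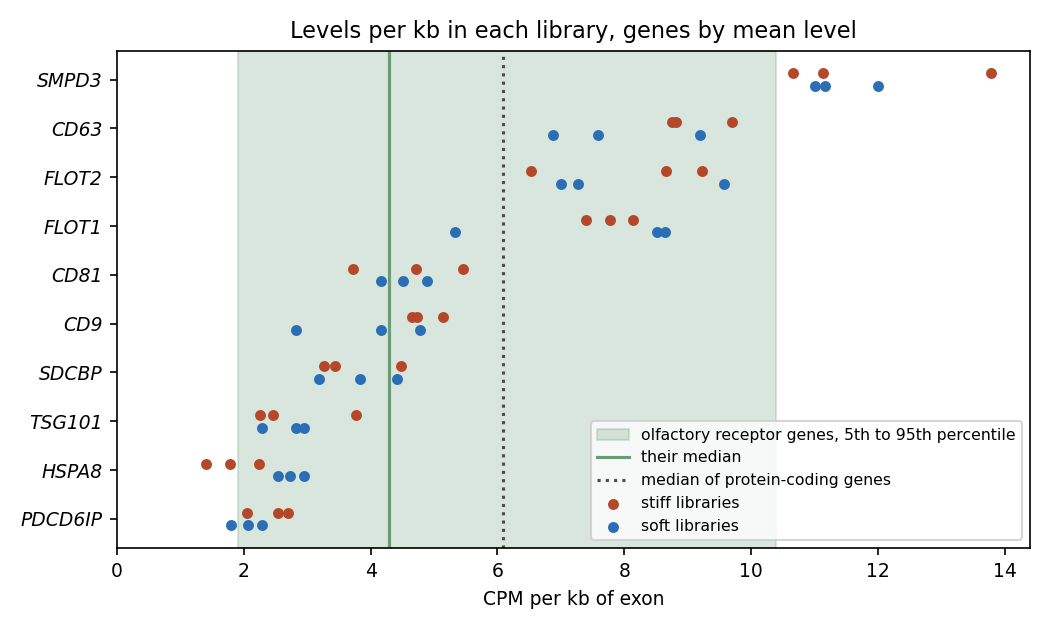
Level per kb of exon of each vesicle marker gene in every stiff (upper points) and soft (lower points) library, with genes ordered by mean level. The shaded band spans the 5th to 95th percentile of 380 olfactory receptor genes, 1.91 to 10.4 CPM per kb, and only the SMPD3 points all lie above it.

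The level per kb went with base composition. Over the 10 markers, Pearson's r between GC content and level per kb was 0.76 and Spearman's rho 0.81 (n = 10 genes, which share the 6 libraries). In single libraries r was 0.70 to 0.80. Over the 18889 protein-coding genes r was 0.56 and rho 0.64, of the same sign as over the markers. Genes are not independent replicates, and these values are a description. The lowest GC decile of protein-coding genes had a median of 3.63 CPM per kb and the highest decile 14.8.

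The transcripts of SMPD3 had 61.4% GC, those of CD81 61.3%, FLOT2 58.3%, FLOT1 56.4% and CD63 53.5%. CD9 had 49.2%, HSPA8 46.6%, TSG101 46.4%, PDCD6IP 41.1% and SDCBP 40.4% GC. Against the median of protein-coding genes in the same GC decile, CD63 was at 1.21 times, SMPD3 at 1.17 times, FLOT2 at 0.970 times, SDCBP at 0.931 times, FLOT1 at 0.920 times and CD9 at 0.826 times. TSG101 was at 0.563 times, PDCD6IP at 0.552 times, HSPA8 at 0.464 times and CD81 at 0.460 times. CD81 and HSPA8 thus lay furthest below the median of their GC decile, with near-equal ratios. CD81 is as GC-rich as SMPD3, and per kb of exon it had a level near that of CD9. With the longest transcript of a gene as its length, CD81 had 6.47 and CD9 10.5 CPM per kb. The part that base composition has in these levels was not tested.

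To show what this range of composition looks like, a stretch of 90 coding bases is given for the highest gene per kb, for the GC-rich gene with a low level and for the 2 lowest genes. Each is read 5′ to 3′ from the GENCODE 29 principal transcript (GRCh38) at the codon-aligned window whose GC content is nearest to that of the whole coding sequence, and capitals mark G and C. SMPD3 is shown from coding base 70 to 159, CD81 and HSPA8 from base 7 to 96 and PDCD6IP from base 331 to 420.
SMPD3: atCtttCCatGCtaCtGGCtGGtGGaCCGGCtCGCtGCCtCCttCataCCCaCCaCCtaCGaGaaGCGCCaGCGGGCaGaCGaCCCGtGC
CD81: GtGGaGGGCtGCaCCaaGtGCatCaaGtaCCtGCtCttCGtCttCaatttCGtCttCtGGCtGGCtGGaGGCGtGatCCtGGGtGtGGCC
HSPA8: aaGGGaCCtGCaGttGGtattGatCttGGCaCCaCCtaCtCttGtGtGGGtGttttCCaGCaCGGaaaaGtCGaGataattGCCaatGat
PDCD6IP: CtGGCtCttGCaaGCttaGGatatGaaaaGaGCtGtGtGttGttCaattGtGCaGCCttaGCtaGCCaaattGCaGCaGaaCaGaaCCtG
G and C make up 57 of the 90 bases in SMPD3, 52 in CD81, 42 in HSPA8 and 41 in PDCD6IP. The coding sequences as a whole had 63.0% GC in SMPD3, 57.3% in CD81, 46.5% in HSPA8 and 45.3% in PDCD6IP.

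**Figure D4:**
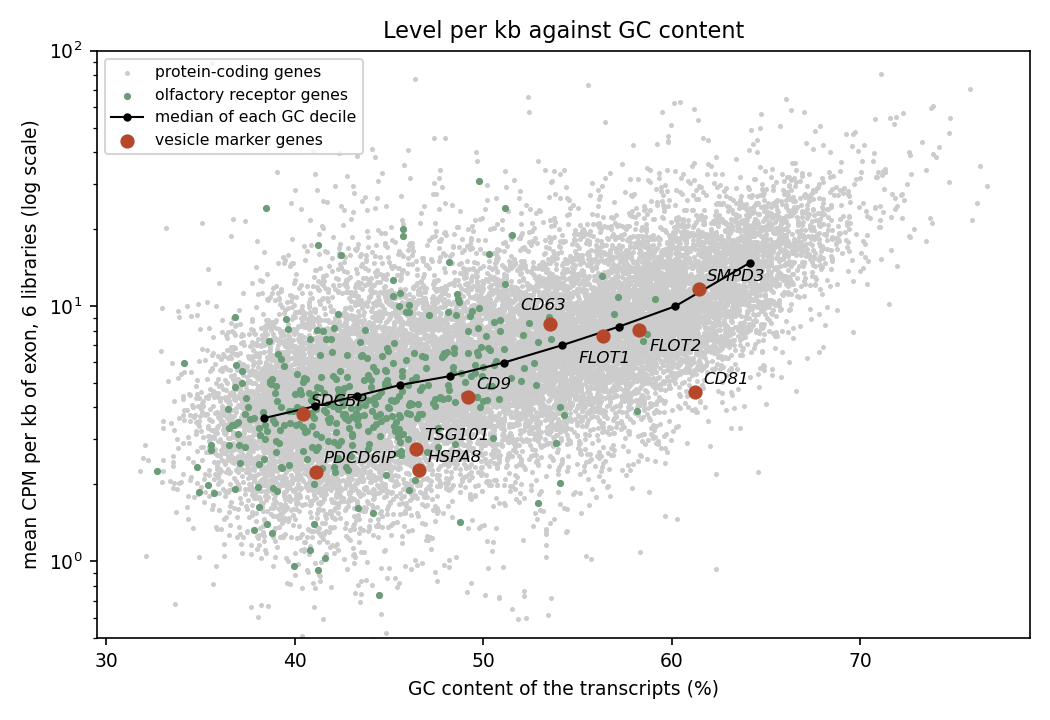
Mean CPM per kb of exon over the 6 libraries (log axis from 0.5 to 100, genes beyond it not drawn) against GC content for 18889 protein-coding genes (grey), with olfactory receptor genes (green), the vesicle markers (red) and the median of each GC decile (black line, 3.63 to 14.8 CPM per kb). CD81 lies furthest below the line among the GC-rich markers, and CD63 lies above it.

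Other genes of the vesicle pathway were examined from a list of 113 genes, all of which were tested. By edgeR 1 of them was called higher in stiff and 0 lower, beside 0.451% of all genes, and 10 had an unadjusted p under 0.05, 7 with stiff higher and 3 with stiff lower. Across all genes tested the share at that p was 9.51%, so 10 of 113 is near the background. On the CPM scale the groups did not overlap in 10 of the 113 with stiff higher and in 5 with stiff lower. Across all genes tested they did not overlap in 14.1%, either direction, so this too is near the background. The median log2 fold change of the list was 0.03, beside -0.00484 for all genes. The called gene was GAPDH, the glycolytic enzyme that is often found in vesicle preparations. GAPDH had 91, 115 and 107 counts in stiff libraries and 58, 43 and 78 in soft ones, or 40.4 ± 2.88 CPM in stiff and 22.1 ± 6.95 CPM in soft (SD, n = 3 each), and it rose by 0.88 ± 0.16 on the log2 scale (SE; adjusted p = 0.000204). It has many processed copies in the genome and is uncertain for that reason. GAPDH was called in 17 of 18 alternatives, limma-voom among them, and DESeq2 with its filter gave it no adjusted p.

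Among 18 other tetraspanins and their integrin partners 0 were called by edgeR, 0 had an unadjusted p under 0.05, and the median log2 fold change was 0.01. ITGB4, the integrin beta chain of hemidesmosomes, had the most counts of them, at 111 ± 7.10 CPM in stiff and 104 ± 5.17 CPM in soft (edgeR adjusted p = 0.770). TSPAN15, a partner of the protease ADAM10, had 70.3 ± 12.6 CPM in stiff and 65.3 ± 4.14 CPM in soft libraries (adjusted p = 0.838). ITGA3, a laminin receptor chain bound by CD151, had the lowest unadjusted p, with 67.4 ± 6.15 CPM in stiff and 58.7 ± 5.64 CPM in soft (adjusted p = 0.613).

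Of 15 genes of ESCRT-0, I and II, 0 were called by edgeR and 0 had an unadjusted p under 0.05. HGS, which gathers ubiquitinated cargo in ESCRT-0, had 66.4 ± 1.64 CPM in stiff and 56.9 ± 3.22 CPM in soft libraries without overlap (log2 fold change 0.22 ± 0.12, adjusted p = 0.537). MVB12B, a subunit of ESCRT-I, had 93.5 ± 9.57 CPM in stiff and 103.9 ± 5.54 CPM in soft (adjusted p = 0.641). Of 15 genes of ESCRT-III and the VPS4 ATPases, which cut the neck of the bud, 0 were called by edgeR. An unadjusted p under 0.05 was found for 1, beside 9.51% of all genes. That was CHMP2A, with 31, 45 and 36 counts in stiff libraries and 55, 37 and 72 in soft ones, which overlap (log2 fold change -0.48 ± 0.22, adjusted p = 0.4504). CHMP1A had 35.7 ± 7.39 CPM in stiff and 40.1 ± 3.12 in soft (adjusted p = 0.768), and CHMP6 34.8 ± 4.71 in stiff and 32.9 ± 1.57 in soft (adjusted p = 0.919).

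Of the 8 genes of the syndecan route 0 were called by edgeR and 2, SDC3 and SDC4, had an unadjusted p under 0.05, with opposite signs, beside 9.51% of all genes tested. SDC3, a syndecan, had 47.5 ± 1.52 CPM in stiff and 38.5 ± 2.76 CPM in soft libraries, which did not overlap (log2 fold change 0.30 ± 0.14, adjusted p = 0.439). SDC4, a further syndecan, named after its values were seen, had 51, 50 and 39 counts in stiff libraries and 57, 61 and 80 in soft ones (log2 fold change -0.42 ± 0.20, edgeR adjusted p = 0.461), and its groups overlapped on the CPM scale. SRC, a kinase that acts on syndecan and syntenin in this route, had 74.7 ± 9.71 CPM in stiff and 82.3 ± 1.55 CPM in soft (adjusted p = 0.714). Of 11 genes of sphingolipids and membrane rafts 0 were called by edgeR and 1 had an unadjusted p under 0.05, beside 9.51% of all genes. That was STOM, stomatin, with 20.5 ± 3.25 CPM in stiff and 26.4 ± 0.995 CPM in soft, which did not overlap (log2 fold change -0.37 ± 0.18, adjusted p = 0.516). SMPD4, a further neutral sphingomyelinase, had 54.5 ± 2.31 CPM in stiff and 54.3 ± 7.96 CPM in soft (adjusted p = 0.998), and CAVIN1, a coat protein of caveolae, 50.7 ± 6.23 CPM in stiff and 47.9 ± 1.69 CPM in soft (adjusted p = 0.906).

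Of 27 RAB, SNARE and related genes of secretion 0 were called by edgeR. An unadjusted p under 0.05 was found for 2, TBC1D10B and TBC1D10C, with stiff higher, beside 9.51% of all genes. TBC1D10B, named after its values were seen, had 47.1 ± 3.33 CPM in stiff and 37.4 ± 3.85 CPM in soft libraries, which did not overlap (log2 fold change 0.33 ± 0.14, edgeR adjusted p = 0.368). TBC1D10C, of a family that acts on RAB GTPases, had 146, 128 and 180 counts in stiff libraries and 104, 143 and 128 in soft ones, which overlap (log2 fold change 0.35 ± 0.13, adjusted p = 0.250). UNC13D, a tethering factor of secretory granules, had 83.5 ± 3.25 CPM in stiff and 73.3 ± 10.9 CPM in soft (adjusted p = 0.575). Among 19 other chaperones and cytosolic cargo genes 16 were above 0, beside 49.1% of all genes, with a median log2 fold change of 0.19, and GAPDH was the 1 called. Of these 19 genes 4 had an unadjusted p under 0.05 by edgeR, all higher in stiff, beside 9.51% of all genes. They were GAPDH, HSPA1B, HSP90AB1 and LAMP1. The last ones, named after their values were seen, had log2 fold changes of 0.41 ± 0.19 for HSP90AB1 (edgeR adjusted p = 0.471) and 0.33 ± 0.17 for LAMP1 (edgeR adjusted p = 0.517). HSPA1B, an inducible paralogue of HSPA8, had 85.3 ± 6.30 CPM in stiff and 71.5 ± 4.62 CPM in soft libraries, which did not overlap (log2 fold change 0.26 ± 0.10, adjusted p = 0.337), and its near-identical copy HSPA1A had 79.9 ± 5.58 in stiff and 77.6 ± 3.80 in soft (adjusted p = 0.936). Reads cannot be assigned securely between HSPA1A and HSPA1B.

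Genes whose proteins serve as negative controls for vesicle preparations were also listed. Of 8 such genes 0 were called by edgeR and 0 had an unadjusted p under 0.05. Above 0 were 7, beside 49.1% of all genes, and the median log2 fold change was 0.12, beside -0.00484 for all genes. CANX, calnexin of the endoplasmic reticulum, had 55.3 ± 3.57 CPM in stiff and 53.7 ± 3.74 CPM in soft (adjusted p = 0.956). GOLGA2, a Golgi matrix protein, had 56.4 ± 3.42 CPM in stiff and 57.1 ± 6.02 CPM in soft (adjusted p = 0.985). CYC1, a subunit of the respiratory chain, had the lowest p among them, at 26.6 ± 3.33 CPM in stiff and 22.8 ± 1.84 CPM in soft (adjusted p = 0.750).

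**Figure D5:**
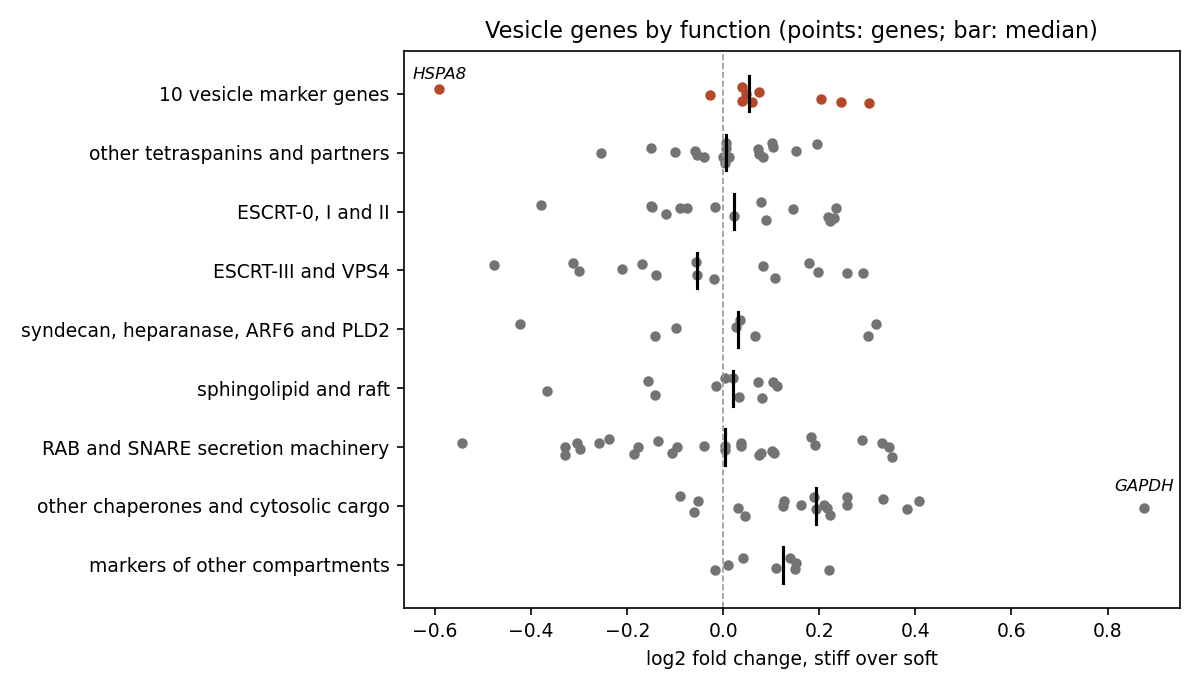
Log2 fold change, stiff over soft, of the 10 vesicle marker genes (top row, red) and of 121 other genes by function (grey), with each row's median as a bar. Row medians lie between -0.05 and 0.19, and GAPDH at 0.88 is the only gene called.

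The genes most like SMPD3 and CD81, the markers with most counts, were sought among 17276 protein-coding genes with at least 20 counts on average, by Pearson's r of log2(CPM + 1) over the 6 libraries. RSPO3 (r = 0.99), AGPS (0.98) and CBX8 (0.98) were closest to SMPD3. TRABD, CEMIP and ARFGEF1 (r = 0.99 each) were closest to CD81. With 6 libraries and so many genes high values arise readily, and 86 genes for SMPD3 and 136 for CD81 exceeded r = 0.9.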

How the data were processed

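The authors deposited raw read counts for each gene symbol in 6 libraries, in 1 table and without normalization. About 10 ng of total RNA was made into libraries with a directional kit and 9 PCR cycles and read in pairs of 61 bp, per the labels' protocols. The submitters' processing notes name FastQC 0.11.7, Trim Galore 0.4.2, cutadapt 1.9.1, STAR 2.6.1e, featureCounts 1.6.2, DESeq2 1.26.0 and hg38, without roles. The annotation, the strand setting and the treatment of reads with several possible positions are not given in the sources used here. Columns were matched to samples by the labels' descriptions. In these, 2 stiff libraries carry the same replicate number, so replicates were numbered by their titles.

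The comparison of stiff with soft used edgeR 4.0.16 in R 4.3.3, with TMM, filterByExpr, robust quasi-likelihood fits and group as the only term. The filter removed 7093 genes and left 31074. Standard errors came from the F statistic, and intervals used its degrees of freedom. Alternatives used DESeq2 1.42.0 and limma 3.58.1. Libraries of the same group differed beyond sampling noise in each pair (chi-square per degree of freedom 1.53 to 3.86), so each library was counted as 1 sample. Nothing beyond the word biological says that they came from separate cultures, and p-values measure only the spread between these libraries. Exon lengths and GC content came from GENCODE 29 (GRCh38), which held 67.2% of the symbols and all 10 markers. The authors' gene models may differ. From each subgroup of the wider list the text names the called genes, the 2 with most counts and the one with the lowest p, and beside them genes that overlap a marker, copy it or vary most like it. The procedure was tested on simulated data with the same dispersion for every gene. These held no planted shift of ribosomal or mitochondrial RNA as a whole between the groups, so they do not test the scaling against such a shift. The members and lists were chosen with earlier results of these data known.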

Additional observations from a re-analysis of the deposited data

How the results depend on the processing

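The 10 vesicle markers gave 0 calls under every alternative but library totals alone, where there was 1, HSPA8. With DESeq2 and its filter only SMPD3 of the markers had an adjusted p, so the others could not be called there. Library totals alone also gave 4194 calls across all genes, 11 in the list of 113 vesicle genes, a median log2 fold change of -0.22 for the markers and a difference in their summed level of -38.4 CPM, beside 11.6 CPM with TMM. That scaling moved the median of all genes to -0.27, and against it the signs turned for CD63 (-0.065), CD81 (-0.23), TSG101 (-0.20), PDCD6IP (-0.026), FLOT1 (-0.22), FLOT2 (-0.23) and SMPD3 (-0.21), with HSPA8 at -0.86 (adjusted p = 0.0235, range over alternatives 0.0235 to 0.999). Correction for GC content covered 70.0% of the genes tested, so its count over all genes, 40, is void as a check, and it gave 45 with the replicate block. The median of the genes covered was 0.066 with the correction and 0.067 with the block added. SDCBP was then at 0.066 and 0.067, beside -0.03 without the correction. The replicate numbers did not pair the libraries (correlations of same-numbered deviations 0.00241, 0.00346 and -0.00363), and the replicate block gave 173 calls over all genes and 0 of the markers. DESeq2 called 88 genes with its filter, 46 without it, and 0 of the vesicle list with it, where GAPDH had no adjusted p.

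Leaving out each library in turn gave 60 to 136 calls over all genes, 0 of the markers, 1 of the vesicle list each time, a median of the markers of 0.038 to 0.17 and a difference in their sum of -0.82 to 24.2 CPM. Signs of genes near 0 turned without some libraries, over ranges of -0.092 to 0.17 for CD81, -0.19 to 0.22 for TSG101, -0.18 to 0.093 for SDCBP, -0.14 to 0.16 for FLOT1, -0.059 to 0.20 for FLOT2 and -0.063 to 0.13 for SMPD3. HSPA8 stayed between -0.78 and -0.44. CD9 ranged from 0.12 without soft replicate 1 to 0.48 without soft replicate 2. CD63 ranged from 0.12 without soft replicate 2 to 0.33 without soft replicate 1, and PDCD6IP from 0.16 without soft replicate 3 or stiff replicate 3 to 0.35 without stiff replicate 1. The cause of these shifts was not tested. The markers had 18 to 263 counts per gene and library, and the part of depth was not tested.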
